A study of Mus musculus with 2 samples.

Results

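Mir144 and Mir451a, the gene pair of the erythroid microRNA cluster, and Mir486 and Mir3107, a pair of genes on opposite strands within Ank1, were followed in gastrocnemius, the large muscle of the calf. The 4 genes were chosen by their GENCODE M21 symbols and matched by Ensembl identifier among the 2202 microRNA gene rows of each deposited table. All 4 were found. The rule uses symbols and not measured values, though it was written with earlier results of these data known. The tissue came from male B6CASTF1/J mice of 2 months, the first-generation cross of C57BL/6J with the wild-derived strain CAST/EiJ, and the labels name no treatment, transgene or altered allele. The series holds 2 libraries of this 1 group, labelled as biological replicates 1 and 2. The labels number the mice separately but list a single donor record for both, so spread between the libraries may be partly technical. With no second group, the data give the level of each gene and how far the libraries differed.

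MicroRNAs are short RNAs that guide the silencing of messenger RNAs, mainly through their seed, bases 2 to 8 from the 5′ end. The Mir144 and Mir451a cluster is switched on in red cell precursors by the transcription factor GATA1, and miR-451 stays abundant in mature red cells. The precursor of miR-451 is known for being cut by the Argonaute protein Ago2 instead of Dicer, which cuts most others, miR-144 among them. Ank1 encodes the ankyrin of the red cell membrane skeleton and also a short form made in striated muscle. miR-486, from the same gene, is abundant in both muscle and red cells and is known to target Foxo1, a transcription factor that promotes muscle wasting.

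Replicate 1 held 638779 counts on the strand of the microRNA genes and replicate 2 held 2272132, which were 17.2 and 16.1% of all reads. Reads that matched several places, 75.2 and 74.4% of all reads, were given to no gene. Levels are counts per 1000000 of the same-strand counts of the library (CPM). A gene with 0 counts could still have had a level of 4.70 CPM in replicate 1 or 1.32 CPM in replicate 2, the worth of 3 counts. The intervals below are exact 95% Clopper-Pearson intervals and, like these limits, hold for counting error alone: no molecular identifiers mark the reads, so PCR copies of a molecule are counted as separate. As markers of the labelled tissue, all 8 skeletal muscle genes listed were at 2 CPM or more in both libraries, against 13.8% of the 2202 genes. The lowest, Mir133a-2, had 6 and 11 counts. All 4 leukocyte markers listed below were also at that level, so reaching it does not set muscle apart.

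Mature and hairpin sequences of the erythroid pair are shown because the genes lie side by side, yet differ in their seeds and in where the mature RNA sits in its hairpin. They come from RefSeq (GRCm38.p6, the assembly also called mm10), which had entries for 2 of the 4 members, Mir144 and Mir451a, at the same positions as GENCODE M21. In the mature RNAs, written 5′ to 3′, capitals mark the seed.
miR-144-5p: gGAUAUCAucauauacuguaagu
miR-144-3p: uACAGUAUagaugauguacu
miR-451a: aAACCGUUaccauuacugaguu
In the hairpins, capitals mark the mature RNAs.
Mir144 hairpin: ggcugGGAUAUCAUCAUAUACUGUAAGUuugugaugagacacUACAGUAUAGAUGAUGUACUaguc
Mir451a hairpin: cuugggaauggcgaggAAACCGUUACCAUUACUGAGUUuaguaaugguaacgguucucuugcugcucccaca

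Mir144 gives a mature RNA from each arm of its 66-base hairpin, miR-144-5p from bases 6 to 28 and miR-144-3p from bases 43 to 62. In the structure of lowest free energy predicted by RNAfold (-28.6 kcal/mol), the terminal loop lay at bases 31 to 36, between them. Mir451a gives 1 mature RNA, from bases 17 to 38 of a 72-base hairpin with a predicted energy of -43.3 kcal/mol. Its terminal loop had 4 bases, 35 to 38, and all 4 belong to miR-451a, so the mature RNA runs up the 5′ arm and through the loop. None of the 3 seeds occurred in another of the 1679 mature mouse microRNAs in the RefSeq table. Over bases 2 to 7, miR-144-3p matched 1 other, miR-101a-3p, while miR-144-5p and miR-451a matched none. The deposited counts are per gene, so reads of the 5p and 3p arms of Mir144 were not separated.

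Mir144 (ENSMUSG00000065401.1) lies on the plus strand at chr11:78073005-78073070 and Mir451a (ENSMUSG00000070065.1) at chr11:78073170-78073241, with 99 bases between them. No other annotated gene outside the microRNA rows overlaps either. Mir451b (ENSMUSG00000104813.1) covers the 72 bases of Mir451a on the minus strand and had 0 counts in both libraries. Mir486 (ENSMUSG00000070084.3) lies on the plus strand at chr8:23142555-23142682, the strand of Ank1. Mir3107 (ENSMUSG00000106471.1) lies on the minus strand at chr8:23142573-23142662, and its 90 bases fall wholly within Mir486. Mir486 was intronic in 15 of 17 annotated Ank1 transcripts, in the last intron of 14, and exonic in none, while the other 2 transcripts do not span it. Of the 17 transcripts, 4 start within 5 kb upstream of Mir486, at 2462 to 3525 bases. Both genes also lie within Gm15816, an annotated antisense transcript on the minus strand, the strand of Mir3107.

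**Figure D1:**
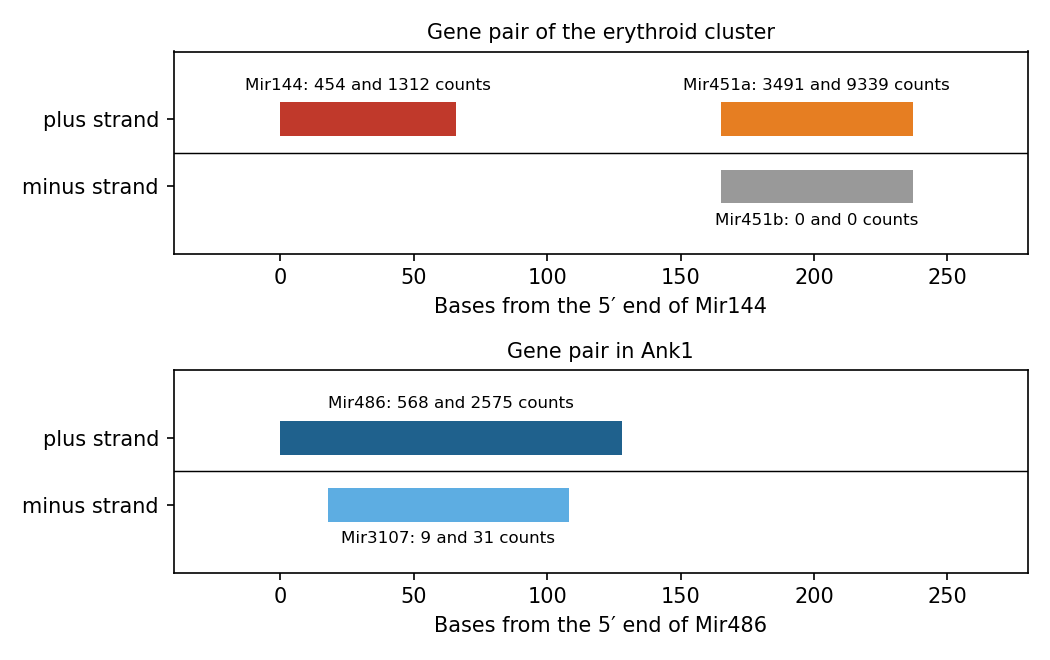
Position of the microRNA genes on each strand, in bases from the 5′ end of Mir144 (upper panel) and of Mir486 (lower panel), with the same-strand counts of replicates 1 and 2 beside each gene. Mir451b has 0 counts opposite Mir451a, and Mir3107, inside Mir486, has 9 and 31 counts against 568 and 2575.

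Mir451a was the most abundant of the 4. It had 3491 counts in replicate 1, or 5465 CPM (5286 to 5649), and 9339 counts in replicate 2, or 4110 CPM (4027 to 4194). Its mean was 4788 ± 958 CPM (SD, n = 2), or 0.479% of counts, and it ranked 32nd among the 2202 genes. miR-451, the red cell microRNA, is known to restrain Ywhaz, a signalling adaptor. Its level was lower in replicate 2, and the intervals of the libraries did not overlap.

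Mir144 had 454 counts in replicate 1, or 711 CPM (647 to 779), and 1312 counts in replicate 2, or 577 CPM (547 to 610). Its mean was 644 ± 94.3 CPM (SD, n = 2), rank 72. Like its neighbour Mir451a, it was lower in replicate 2, with intervals that did not overlap.

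Mir486, the Ank1 microRNA on the host strand, had 568 counts in replicate 1, or 889 CPM (818 to 965), and 2575 counts in replicate 2, or 1133 CPM (1090 to 1178). Its mean was 1011 ± 173 CPM (SD, n = 2), rank 59. It was higher in replicate 2, the opposite direction to the erythroid pair, and its intervals did not overlap.

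Mir3107, the gene on the strand opposite to Ank1, was the least abundant. It had 9 counts in replicate 1, or 14.1 CPM (6.44 to 26.7), and 31 in replicate 2, or 13.6 CPM (9.27 to 19.4). Its mean was 13.9 ± 0.315 CPM (SD, n = 2), rank 237. Its intervals overlapped, and the small SD is narrower than the counting error of either library. Both libraries were above the level that a count of 0 allows. All 4 genes were at 2 CPM or more in both libraries, the level called detected, against 13.8% of the 2202 genes.

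**Figure D2:**
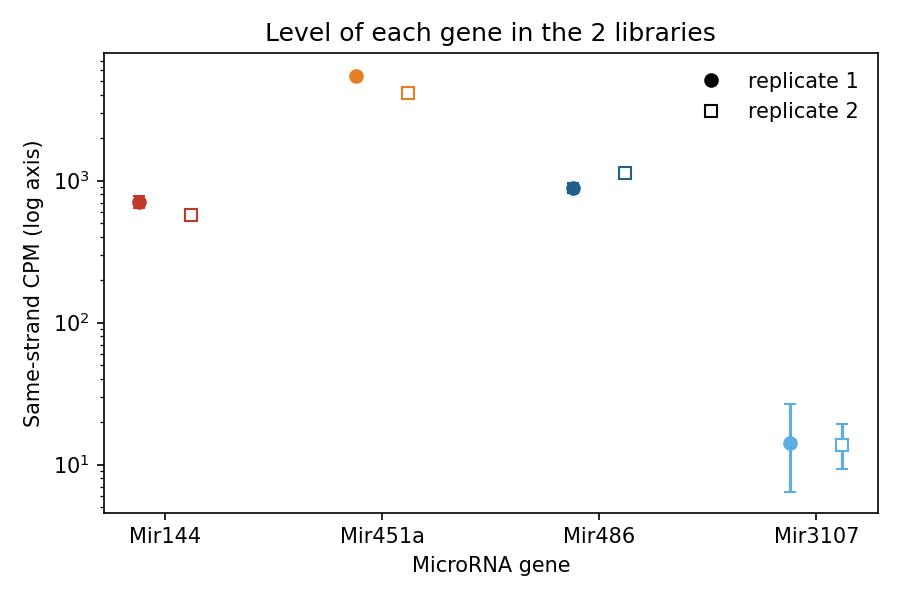
Same-strand CPM of each gene (log axis) in replicate 1 (filled circles) and replicate 2 (open squares), with exact 95% intervals of counting error. Mir451a is highest at 5465 and 4110 CPM and Mir3107 lowest at 14.1 and 13.6 CPM, while Mir144 and Mir451a are lower and Mir486 is higher in replicate 2.

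In order of CPM the genes stood as Mir451a, Mir486, Mir144 and Mir3107 in both libraries, and the ranges over the libraries did not overlap between neighbours. A read of a mature microRNA is counted once whatever the length of the annotated hairpin, and the annotated genes differ in length, from 66 bases for Mir144 to 128 for Mir486. Per 100 bases of annotated gene, Mir451a stayed highest at 6650 ± 1331 CPM (SD, n = 2) and Mir3107 lowest at 15.4 ± 0.350. On that scale Mir144, at 976 ± 143, was above Mir486, at 790 ± 135. Their ranges overlapped (875 to 1077 for Mir144 and 695 to 885 for Mir486). The swap of these neighbours comes from the annotated lengths alone, which do not change how often a mature read is counted.

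The order also rests on reads that match 1 place. Mir486 and Mir3107 share an identical run of 22 bases, about the length of a whole mature microRNA, and reads inside it are given to neither gene. Which gene such reads came from cannot be told from the counts. The level of either gene may therefore be an underestimate, of unknown size. Whether any of the reads counted for Mir3107 came from Mir486 was not tested. Mir144 shared at most 13 bases with another annotated microRNA gene and Mir451a at most 16, in both cases under the 20 bases taken as a sign of shared reads. Of the 2202 genes, 1084 shared 20 bases or more with another. Reads that match several places count for no gene, so ranks among the 2202 genes hold only for reads that match 1 place.

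Within a library, the erythroid pair kept nearly the same proportion. Mir451a had 7.69 counts for each Mir144 count in replicate 1 (95% interval 6.97 to 8.50) and 7.12 in replicate 2 (6.72 to 7.55), a mean of 7.40 ± 0.404 (SD, n = 2). These intervals overlapped. Mir486 had 63.1 counts for each Mir3107 count in replicate 1 (33.0 to 139) and 83.1 in replicate 2 (58.4 to 123). These also overlapped, at the low depth of Mir3107. Reads inside the 22 bases that this pair shares are in neither count. The ratio and its intervals therefore hold for the remaining reads alone, and do not give the proportion of the 2 microRNAs. Mir451a had 6.15 counts for each Mir486 count in replicate 1 (5.62 to 6.73) and 3.63 in replicate 2 (3.47 to 3.79), a comparison chosen after its values were seen. These intervals, which cover counting error alone, did not overlap, and the ratio restates the lower Mir451a and higher Mir486 of replicate 2. Mir486 reads inside the shared run are not counted, and counting any of them would lower the ratio in both libraries.

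The difference between the libraries was tested by an exact two-sided binomial test on the counts of all 311 genes with 10 or more counts, with Benjamini-Hochberg adjustment over all of them. It compares these libraries, not mice or conditions. In all, 40.5% of the genes passed, 23.2% higher and 17.4% lower in replicate 2. Of the 4 members, 3 passed, and genes with many counts pass this test more readily. Mir451a was at 0.752-fold in replicate 2 relative to replicate 1 (0.723 to 0.782, adjusted p = 1.34e-43, exact binomial test). Mir144 was at 0.812-fold (0.730 to 0.906, adjusted p = 0.000688, exact binomial test). Mir486 was at 1.27-fold (1.16 to 1.40, adjusted p = 5.1e-07, exact binomial test). Like the ratio of Mir3107 below, this ratio leaves out reads inside the run that the 2 genes share. Mir3107 did not pass, at 0.968-fold, with an interval from 0.450 to 2.31 that includes changes of either sign (adjusted p = 0.955, exact binomial test).

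Each difference was exceeded by some of the genes of like abundance. Mir451a differed by an absolute log2 ratio of 0.41, and 7 of the 21 tested genes within 2-fold of its mean CPM, itself included, differed more (median 0.26). For Mir144 the value was 0.30, exceeded by 27 of 45 such genes (median 0.35). For Mir486 it was 0.35, exceeded by 16 of 40 (median 0.30), and for Mir3107 it was 0.10, exceeded by 63 of 75 (median 0.49). With the spread between the libraries counted as noise, a coefficient of variation of 27.9%, edgeR's exact test gave an adjusted p of 1 for each of the 4 and passed 2 of the 311 genes. That noise was estimated from the same 2 libraries that were then compared, so few genes could pass.

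**Figure D3:**
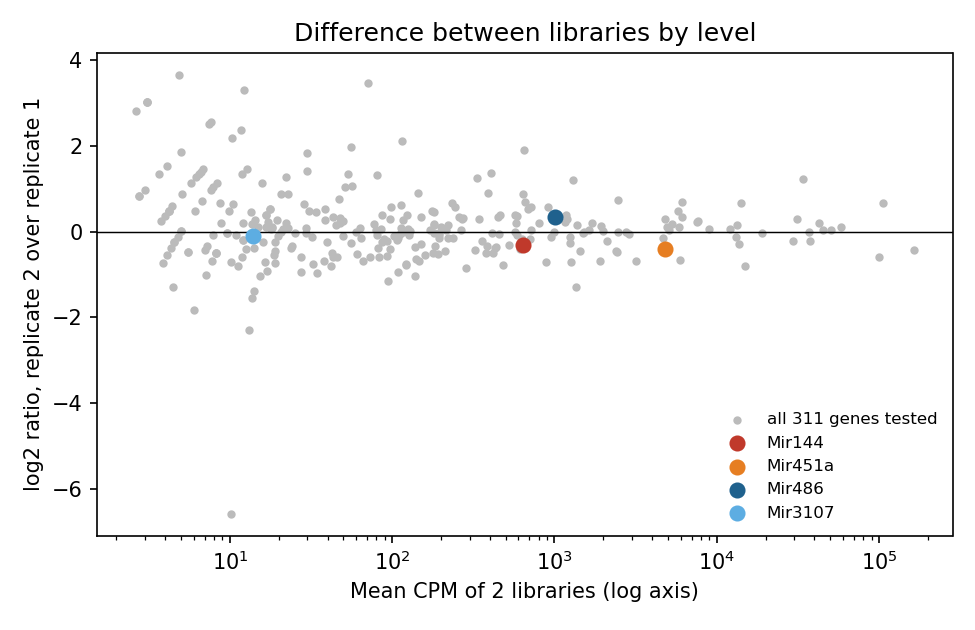
The log2 ratio of replicate 2 over replicate 1 against mean CPM (log axis) for the 311 genes tested (grey), with the 4 members in colour. Mir451a (-0.41) and Mir144 (-0.30) lie below 0 and Mir486 (0.35) above it, all inside the cloud of genes of like level.

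Lists of microRNA genes put these shifts beside the cells that muscle tissue holds. The erythroid sum, Mir144 with Mir451a, was 6176 CPM in replicate 1 and 4688 in replicate 2. Both genes are members, so this sum restates their own shift. The leukocyte markers Mir142, Mir150, Mir155 and Mir223 summed to 2542 and 2889 CPM. All 4 were detected, against 13.8% of the 2202 genes. In replicate 2, 2 were higher, 1 was lower and 1 did not pass, against 23.2% higher and 17.4% lower over all 311 genes. The endothelial sum, nearly all Mir126a from the vessel gene Egfl7, was 81286 and 129798 CPM, and Mir126b had 0 and 1 counts. The 8 skeletal muscle genes summed to 21995 and 51024 CPM, of which Mir206 alone gave 20325 and 48078. Mir206, Mir499 and Mir208b were higher in replicate 2, against 23.2% over all genes tested, and 5 did not pass. The median log2 ratio of the 8 was -0.18, the other side of 0 from their sum, against 0.04 over all 311. The 5 that did not pass had log2 ratios from -1.01 to 0.04. They encode miR-1 and miR-133, and each shares 20 bases or more with another gene. Mir133a-2 (6 and 11 counts), Mir1a-1 (9 and 25), Mir133a-1 (10 and 28) and Mir133b (14 and 27) had few counts, so their ratios are uncertain. Mir1a-2 had 167 and 611. Replicate 2, where Mir486 was higher and the erythroid pair lower, thus had higher Mir126a and higher Mir206, Mir499 and Mir208b. The other 5 of the 8 muscle genes did not pass, and Mir1a-2, the best counted of the 5, had a log2 ratio of 0.04. The median of the muscle list lay below 0, but it rests largely on genes with few counts. The part of these cell types in the result was not tested. In bulk tissue, fewer cells of a type and less RNA per cell cannot be told apart.

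Other microRNA genes known from red cells were mostly detected. Of 9 such genes, 8 were detected, against 13.8% of the 2202 genes, and these 8 were tested. Mir96 had 0 counts in both libraries. Of the 8, 4 were higher in replicate 2, none was lower and 4 did not pass, against 23.2% higher and 17.4% lower over all genes tested. Their median log2 ratio was 0.33, against 0.04 for all 311 genes, and their sum was 7607 CPM in replicate 1 and 9682 in replicate 2. Mir191 gave most of it, with 5392 and 6834 CPM, followed by Mir16-1 (1312 and 1459 CPM) and Mir92-1 (449 and 835 CPM). All 3 passed as higher in replicate 2. These genes are also expressed in many other cells, and 4 of the 9, Mir16-1, Mir16-2, Mir92-1 and Mir92-2, share 20 bases or more with another gene.

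Among 6 genes known to fall as red cell precursors mature, all were detected, against 13.8% of the 2202 genes. In replicate 2, 1 was higher, 1 lower and 4 did not pass, shares near the 23.2% and 17.4% over all genes tested. Their median log2 ratio was 0.11, and their sum was 1947 and 2072 CPM. The most abundant were Mir155, which is also a leukocyte marker (1065 and 1314 CPM, higher), Mir24-2 (443 and 313 CPM, lower) and Mir221 (210 and 233 CPM, not passing). Mir24-1 and Mir24-2 share 20 bases or more with another gene.

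The genes nearest in level were found by Euclidean distance of log2(CPM + 1) over the 2 libraries. Nearest to Mir144 were Mir299a (737 and 602 CPM, distance 0.08) and Mir425 (670 and 597 CPM, 0.10). Nearest to Mir451a were Mir27b (4898 and 4449 CPM, 0.19) and Mir196b (4986 and 5166 CPM, 0.36). For Mir486 they were Mir497 (989 and 988 CPM, 0.25) and Mir185 (739 and 1095 CPM, 0.27). For Mir3107 they were Mir598 (9 and 32 counts, 0.04) and Mir133a-1 (10 and 28 counts, 0.20). None of the 8 is a neighbour of the members within 10 kb, and Mir299a, Mir27b and Mir133a-1 share 20 bases or more with another gene. Over 2 libraries this likeness describes level alone.

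In the column that ignores strand, 3 of the 4 genes had no counts. Mir144, with no gene opposite, kept its 454 and 1312 counts. Mir451a went from 3491 and 9339 counts to 0, although Mir451b on the other strand had no counts of its own. The total of ambiguous reads was 0 with strand, and 191677 and 680731 in replicates 1 and 2 without it. Mir486 and Mir3107 also went to 0. In the column for the opposite strand, Mir486 carried the 9 and 31 counts of Mir3107, and Mir3107 carried the 568 and 2575 counts of Mir486. Mir144 and Mir451a had 0 counts on the opposite strand in both libraries.

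**Figure D4:**
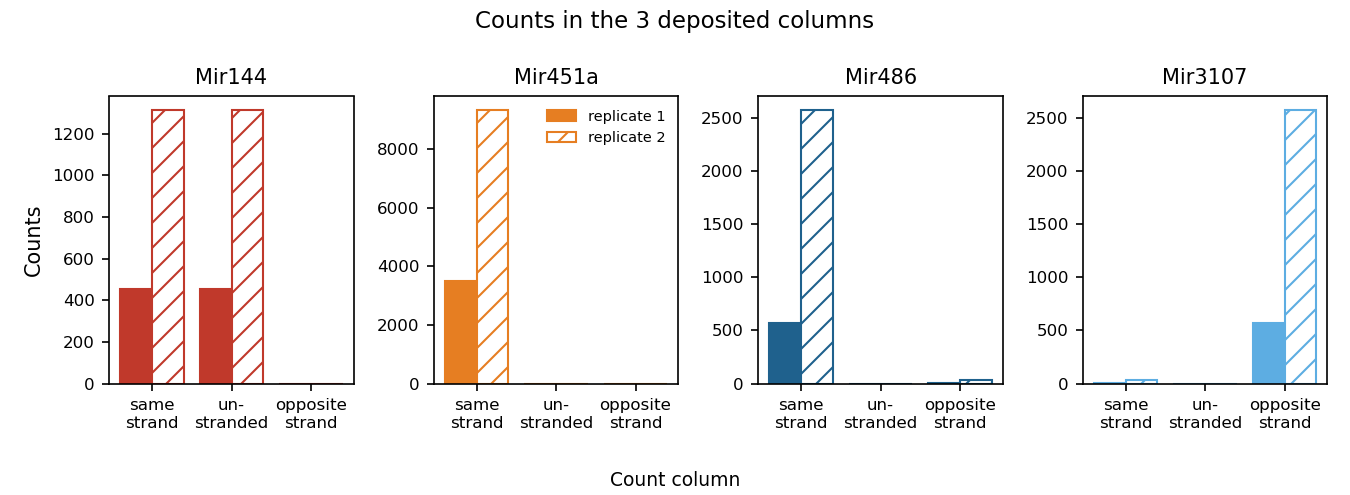
Counts of each gene in the same-strand, unstranded and opposite-strand columns (linear axis from 0, a scale for each gene), with filled bars for replicate 1 and hatched bars for replicate 2. Mir144 has the same counts with and without strand, while Mir451a, Mir486 and Mir3107 have 0 in the unstranded column.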

How the data were processed

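RNA inserts under 30 nt from gastrocnemius were sequenced in 2 libraries, per the labels. The authors deposited raw counts per microRNA gene, on mm10 with GENCODE M21 per the accompanying texts. Aligner and counter: not given in the sources used here. The tables each have 3 unnamed count columns. The column with the largest total over genes was read as the strand of the gene and used throughout. The 4 rows that name no gene (unmapped 5.97 and 6.93% of reads, no feature 1.62 and 2.48%, several places 75.2 and 74.4%, ambiguous 0) stayed out of library sizes. All 2202 identifiers matched GENCODE M21.

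Log2 ratios used a prior count of 0.5. Shared runs were found in GENCODE transcript sequences. The binomial test was first run on simulated counts with counting error alone, which cannot show how it behaves with further spread between libraries. The members and lists were chosen with earlier results of these data known. Named genes are the 4 members, microRNA genes within 10 kb, the 2 genes nearest each member in level, and up to 3 leading genes of each list. Mir96, Mir126b and the other list members named outside this rule were chosen after their values were seen. Alternatives were unstranded counts, TMM and DESeq2 scaling, all reads as denominator, other filters, thresholds and prior counts, edgeR's exact test, and each library left out. Software was Python 3.11.15 with scipy 1.17.1, RNAfold 2.7.2, edgeR 4.0.16 and DESeq2 1.42.0.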

Additional observations from a re-analysis of the deposited data

How the results depend on the processing

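Of 51 alternative values over 11 results, 37 were counted as unchanged. Ratios kept their direction and side of the threshold, levels moved by less than the spread between the libraries, or counts of genes stayed near the main count. No ratio changed sign, and levels cannot. Part of the 37 was fixed in advance. With 2 libraries, leaving out either always moves a mean by less than the SD, and the prior count does not enter the binomial test. With unstranded counts Mir144 had 920 CPM, Mir451a, Mir486 and Mir3107 had 0 CPM, 1 of the 4 genes was detected and Mir451a had 0 counts per Mir144 count. No ratio could be fitted there for those 3 genes. Per 1000000 of all reads the levels were 108 for Mir144, 802 for Mir451a, 168 for Mir486 and 2.31 for Mir3107, by construction lower. With edgeR's exact test, which took its noise from the same libraries, Mir451a (log2 ratio -0.41), Mir144 (-0.30) and Mir486 (0.35) did not pass. Over the scalings the adjusted p of these 3, by the exact binomial test, stayed at or under 0.000688. Of the genes passing, 57.1% were higher in replicate 2 with plain totals, 44.4% with TMM and 47.9% with DESeq2 scaling, so the balance over all genes is not fixed. Leaving out each library gave 577 to 711 CPM for Mir144, 4110 to 5465 for Mir451a, 889 to 1133 for Mir486, 13.6 to 14.1 for Mir3107, and 7.12 to 7.69 Mir451a counts per Mir144 count. No paired analysis was possible because the series has 1 group.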

Other observations

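The loss of Mir451a, Mir486 and Mir3107 without strand was shared by every gene in their position. Of the 2202 microRNA genes, 64 overlap an annotated microRNA gene on the other strand, and 36 of these had same-strand counts. All 36 kept under 1% of their counts in the unstranded column. They held 30.0% of the same-strand counts in each library. Of the 513 genes with counts and no such overlap, 499 had the same counts in both columns, 14 had more without strand and none had fewer.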
